A study of Homo sapiens with 12 samples.

Results

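The fusion kinase that drives K562 cells, the kinases that nilotinib binds and the adaptor proteins that carry their signal were followed here at the level of their transcripts. The 10 genes were BCR, ABL1, ABL2, KIT, DDR1, PDGFRB, GAB2, CRKL, GRB2 and SHC1, found by name among the 58735 genes of the count table, and each name occurred there once. All 10 had enough counts to be tested, PDGFRB only narrowly, with 77 reads over all libraries. K562 is an established human leukemia cell line that gains erythroid features when it is given hemin. The 4 groups, each of 3 biological replicates, were mock DMSO (solvent, no hemin), mock nilotinib (0.1 μM nilotinib, no hemin), hemin DMSO (solvent and 50 μM hemin for 24 h) and hemin nilotinib (both agents, hemin for 24 h). The study's methods describe 24 h of nilotinib or solvent before hemin and collection at 0 and 24 h of hemin, whereas its scheme draws equal exposure to nilotinib for all groups. If the methods hold, the hemin libraries were also exposed to nilotinib or solvent for longer than the mock libraries, and time and hemin cannot be told apart. Because every library comes from 1 cell line, the values describe K562 alone.

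Total counts per library lay between 33457078 and 50506990. Levels are given as CPM, counts per 1e+06 counts after scaling each library by its TMM factor. Levels of different genes are compared after division by gene length (CPM per kb). The exception is the ratio of BCR to ABL1 counts, which is read only between groups. The erythroid leukemia markers fixed for K562 (GATA1, TAL1, LMO2, glycophorin A and embryonic and fetal globins, 7 genes) all had at least 10 counts in every library. Their summed level was 707, 847 and 1032 CPM in mock DMSO and 699, 739 and 656 CPM in hemin DMSO, so hemin in solvent did not raise it. In the nilotinib libraries the sum was between 2591 and 3974 CPM. The most abundant of these genes was GATA1 in mock DMSO and HBG1 in the other groups. Markers of other cells were low. The 5 lymphoid genes summed to at most 25.8 CPM and the 4 stromal genes to at most 33.7 CPM. The sums of the 5 myeloid genes (at most 53.8 CPM, led by LYZ) and of the 4 megakaryocyte genes (at most 69.7 CPM, nearly all ITGA2B) were lower in each nilotinib library than in any DMSO library, as were the lymphoid sums. The stromal sums were between 25.8 and 33.7 CPM in the 3 hemin DMSO libraries and between 8.80 and 22.9 CPM in the other 9. Whether these marker shifts bear on the levels below was not tested.

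BCR-ABL1 arises when a translocation joins the 5′ end of BCR to most of ABL1. The product is a tyrosine kinase that is always active and that recruits the adaptors GRB2, GAB2, SHC1 and CRKL, through which it reaches the RAS-ERK, PI3K-AKT and STAT5 pathways. Nilotinib binds the inactive form of the ABL kinase domain, and it also binds ABL2, KIT, the PDGF receptors and the collagen receptors DDR1 and DDR2.

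In mock DMSO, the order of the genes per length was led by CRKL at 129 ± 3.83 CPM per kb (SD, n = 3), followed by ABL1 at 67.3 ± 5.14, GRB2 at 43.5 ± 1.58, GAB2 at 35.2 ± 3.78, BCR at 19.4 ± 1.29 and SHC1 at 17.9 ± 0.309 CPM per kb. DDR1 stood at 9.78 ± 0.223, KIT at 4.88 ± 0.792 and ABL2 at 4.68 ± 0.119 CPM per kb, and PDGFRB was close to absent. KIT and ABL2 differed by less than the spread of KIT between replicates. CRKL kept the first place in all 4 groups and ABL1 had the second by its mean, although in hemin DMSO it lay within the spread of GRB2 (45.7 ± 4.97 and 44.8 ± 2.27 CPM per kb), whereas GAB2 dropped from the fourth place in mock DMSO to the seventh in both nilotinib groups.

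**Figure D1:**
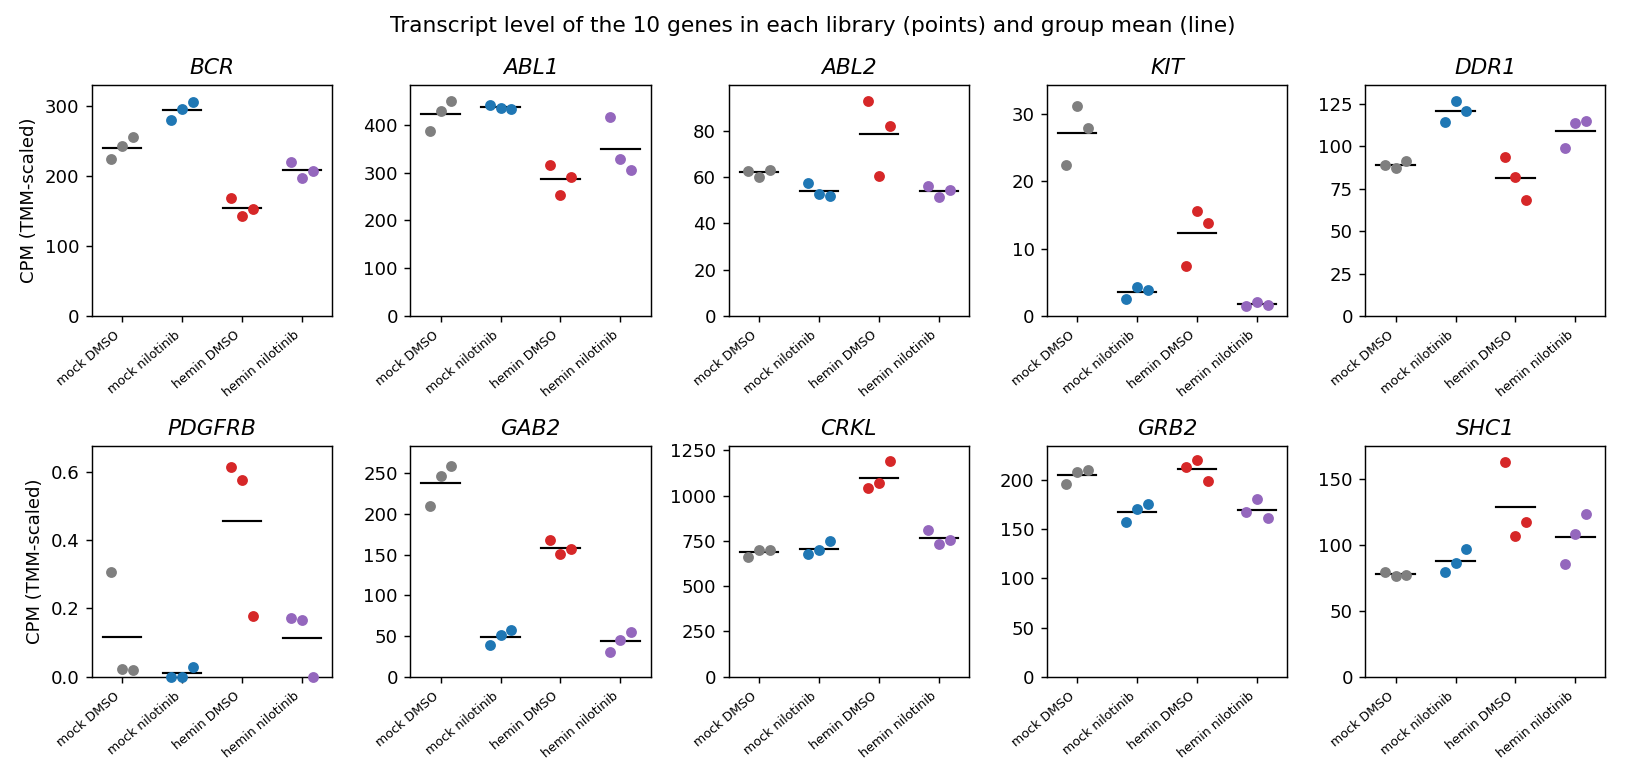
Level of each of the 10 genes in CPM (TMM-scaled, vertical axis from 0, a different scale in each panel), with points for the 12 libraries and lines for the means of the 4 groups of 3. KIT and GAB2 are low in all 6 nilotinib libraries, CRKL is highest in the 3 hemin DMSO libraries, between 1042 and 1189 CPM, and PDGFRB stays below 1 CPM.

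With nilotinib added to hemin, 2 of the 10 genes were higher and 5 lower at an adjusted p of 0.05. Over all 20821 genes tested, 32.4% were higher and 31.8% lower in that comparison. Without hemin, nilotinib gave 1 higher and 3 lower (20.7% and 21.8% of all genes). Hemin in the absence of nilotinib gave 3 higher and 4 lower (25.7% and 27.8%), and hemin in the presence of nilotinib gave 0 higher and 2 lower (3.52% and 2.28%). In the last comparison 3 of the 10 had an unadjusted edgeR p under 0.05, and 2 of the 10 passed with DESeq2 and with the replicate block, over 12 libraries or over the 6 of the comparison, the latter an alternative added after the data were seen. Without the block 0 passed in the 6 libraries alone, 0 without mock nilotinib replicate 2 or 3 or hemin nilotinib replicate 2 or 3, and 1 without mock DMSO replicate 1, 2 or 3 or hemin DMSO replicate 3. Without hemin, the number past the threshold with nilotinib was 2 of the 10 without mock DMSO replicate 2 or mock nilotinib replicate 2. The effect of nilotinib differed between hemin and no hemin, by the interaction term, for 0 genes upward and 1 downward, against 17.1% and 13.0% of all genes, with 1 unadjusted p under 0.05. Upper-quartile scaling moved the median of all genes for nilotinib without hemin to 0.113 from 0.004 (log2), that for hemin without nilotinib to 0.073 from -0.047 and that of the interaction to -0.057 from 0.063, so its values are read against these shifts. The median log2 fold change of the 10 was -0.42, -0.08, -0.04, -0.07 and 0.06 in these 5 comparisons, and that of all genes 0.02, 0.00, -0.05, 0.03 and 0.06. With 10 genes these shares are coarse, and the account rests on single genes. The comparisons share groups, so their values are given side by side and are not independent.

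**Figure D2:**
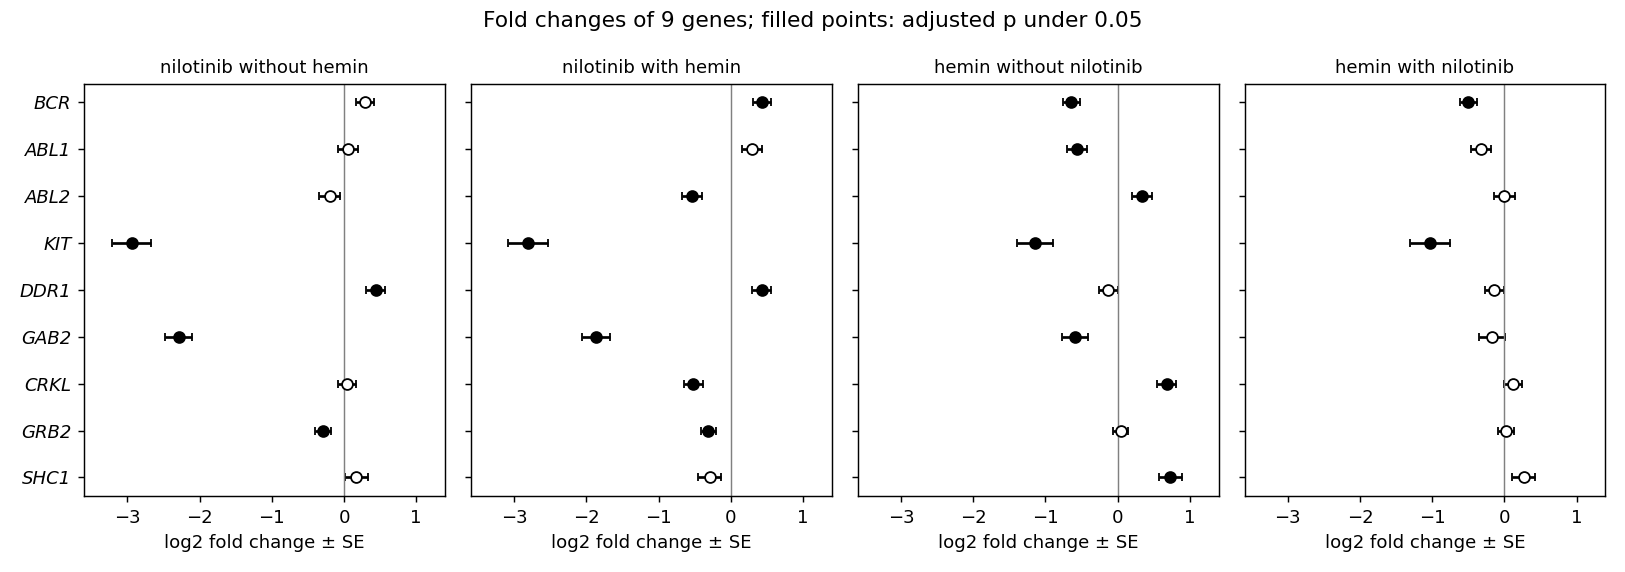
Log2 fold change with its standard error (horizontal axis) of 9 genes in 4 comparisons, fitted over 12 libraries; filled points have an adjusted p under 0.05, and PDGFRB is left out because of its few counts. The values for KIT lie between -2.94 and -1.03, GAB2 is far to the left only in the nilotinib panels, and CRKL is to the left with nilotinib under hemin but near 0 without hemin.

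BCR encodes a signalling protein with serine/threonine kinase activity, and in K562 its promoter also drives the fusion gene. It lies on chromosome 22 (23179704 to 23318037, plus strand, GRCh38; ENSG00000186716), and ABL1, the gene of the normal and the fused kinase domain, on chromosome 9 (130713946 to 130887675, plus strand; ENSG00000097007). Counts per gene pool the reads of the fusion with those of the normal alleles, which therefore cannot be told apart here. The promoters of both genes are shown because the transcripts of the fusion start at BCR and those of normal ABL1 at its own start sites. The sequences are from RefSeq (GRCh38.p14, plus strand, 250 bases before to 50 after the listed start), at chr22:23180259-23180558 for BCR and chr9:130835004-130835303 for ABL1, and an entry existed for each of the 10 genes. Both windows lie within the gene spans given above, each being the listed entry nearest to the start of its gene. That of ABL1 is far downstream of the outermost start at 130713946, so the sequence around that start is not shown. Capitals mark GC boxes (GGGCGG, both strands), which 45% of all 35116 promoters in the RefSeq table hold. Each of the pair holds 2.
BCR: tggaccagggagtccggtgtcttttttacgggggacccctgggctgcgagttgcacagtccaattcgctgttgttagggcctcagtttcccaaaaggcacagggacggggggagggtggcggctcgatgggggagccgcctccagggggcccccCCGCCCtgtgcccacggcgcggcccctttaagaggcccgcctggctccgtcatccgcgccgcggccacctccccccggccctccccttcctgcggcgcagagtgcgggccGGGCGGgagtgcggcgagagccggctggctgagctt
ABL1: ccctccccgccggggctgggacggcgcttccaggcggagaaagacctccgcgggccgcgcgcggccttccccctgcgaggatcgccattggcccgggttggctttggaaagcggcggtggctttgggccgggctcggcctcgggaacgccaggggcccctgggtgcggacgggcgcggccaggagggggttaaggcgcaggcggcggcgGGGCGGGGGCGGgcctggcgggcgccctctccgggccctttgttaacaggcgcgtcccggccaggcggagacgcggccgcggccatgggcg

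BCR was measured at 224, 243 and 256 CPM in mock DMSO and at 280.1, 296 and 306 CPM in mock nilotinib. With hemin it was at 168, 142 and 153 CPM in solvent and at 220.4, 197 and 207 CPM with nilotinib. The 4 groups did not overlap, in the order mock nilotinib, mock DMSO, hemin nilotinib and hemin DMSO. Under hemin, nilotinib raised BCR by 0.43 on the log2 scale (SE 0.12, edgeR adjusted p = 0.00477), and this held in all 19 alternatives. In bulk RNA, fewer cells of a kind and less RNA per cell cannot be told apart, here and below. Without hemin the difference was 0.29 (SE 0.12, edgeR adjusted p = 0.0600), short of the threshold, which it passed in 7 alternatives: DESeq2 (0.30), upper-quartile scaling (0.40), genes with 10 counts in every library (0.30), the 6 libraries alone (0.29), and without hemin DMSO replicate 1 (0.30) or 2 (0.30) or hemin nilotinib replicate 1 (0.29). It was smallest, at 0.19, without mock DMSO replicate 1. The difference between both effects was 0.14 (interaction, SE 0.17, edgeR adjusted p = 0.561) and did not pass.

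Hemin lowered BCR in both backgrounds. It fell by 0.64 without nilotinib (edgeR adjusted p = 0.000291) and by 0.50 with nilotinib (edgeR adjusted p = 0.0242), with all 3 hemin libraries below all 3 mock libraries each time. The second call was lost in the 6 libraries alone (-0.49), without mock nilotinib replicate 2 (-0.52) or 3 (-0.49) and without hemin nilotinib replicate 2 (-0.485) or 3 (-0.50), and it was kept with the replicate block in the same 6 libraries (-0.49). Of the 150-base words of BCR transcripts, 3.02% also occur in other genes, among them BCRP3, AP000356.3 and its pseudogene BCRP2. A small part of the counts may therefore depend on how shared reads were assigned.

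ABL1 was measured at 387, 429 and 451 CPM in mock DMSO and at 442, 436 and 433 CPM in mock nilotinib. Its hemin values were 316, 254 and 291 CPM in solvent and 417, 329 and 305 CPM with nilotinib. Neighbouring groups in the order of the means overlapped throughout, and hemin nilotinib replicate 1 lay within the range of mock DMSO. Hemin without nilotinib lowered ABL1 by 0.56 on the log2 scale (SE 0.14, edgeR adjusted p = 0.00333), all 3 libraries below all 3 of mock DMSO. With nilotinib the difference was -0.32 (SE 0.14, edgeR adjusted p = 0.198), and it passed the threshold at -0.465 without hemin nilotinib replicate 1; the interaction was 0.24 (SE 0.20, edgeR adjusted p = 0.389). Nilotinib itself gave 0.29 under hemin (SE 0.14, edgeR adjusted p = 0.0836), which single libraries moved from 0.16 without hemin nilotinib replicate 1 to 0.39, past the threshold, without hemin nilotinib replicate 3. Without hemin it gave 0.05 (SE 0.14, edgeR adjusted p = 0.808), or -0.06 without mock DMSO replicate 1.

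The ratio of BCR to ABL1 counts was 0.57 ± 0.0066 in mock DMSO, 0.673 ± 0.037 in mock nilotinib, 0.540 ± 0.0182 in hemin DMSO and 0.602 ± 0.0744 in hemin nilotinib (SD, n = 3 each). The 3 mock nilotinib libraries, from 0.634 to 0.708, all lay above the 3 of mock DMSO, from 0.566 to 0.578. In hemin nilotinib, the values of 0.529, 0.600 and 0.678 lay near the lowest, in the middle and among the highest of all libraries. Each was below that of the mock nilotinib library with the same replicate number (0.634, 0.678 and 0.708). The ratio is not divided by gene length and does not give the relative abundance of the transcripts. Per length it was 0.293, 0.287 and 0.287 in the mock DMSO libraries. No test was made of this ratio. Over the 12 libraries the log2 levels of both genes had a Pearson r of 0.920, a description in which the points share the 4 treatments.

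**Figure D3:**
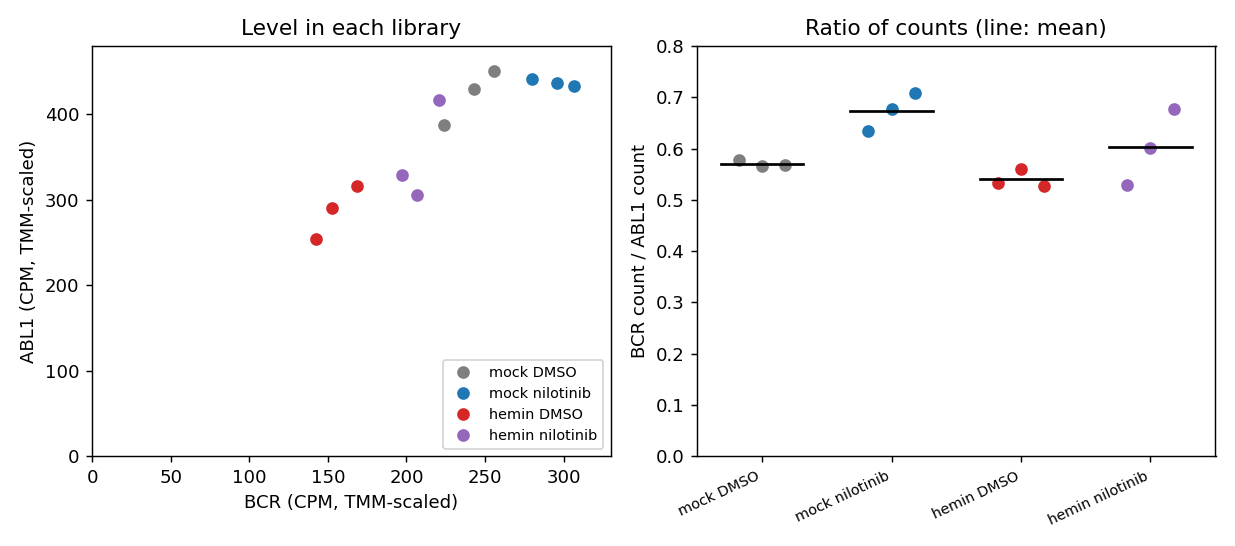
Left, ABL1 against BCR in CPM in the 12 libraries, both axes from 0, and right, the ratio of BCR to ABL1 counts in each library with group means as lines. Neither panel is divided by gene length. Mock nilotinib lies above mock DMSO, from 0.634 to 0.708 against 0.566 to 0.578, and the 3 hemin nilotinib libraries are spread from 0.529 to 0.678.

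Among the 12494 tested genes with a mean of at least 100 counts, those whose log2 levels over the 12 libraries were most like BCR were ATP6AP1L (r = 0.981), MDC1 (0.978), KCNK1 (0.977), INPPL1 (0.977) and CDC42BPB (0.975). INPPL1, which encodes the lipid phosphatase SHIP2, is also on the list of partners and regulators below. Most like ABL1 were PARP16 (0.963), TRIM32 (0.962), EPHB4 (0.961), PDCD7 (0.960) and FAAP24 (0.957). Of the genes within 500 kb of BCR, 21 of 90 were tested, and 11 were higher and 5 lower with nilotinib under hemin (median 0.72), or 7 and 3 in the 6 libraries alone and 3 and 2 among genes with 10 counts in every library. Around ABL1, 15 of 25 were tested, with 6 higher and 4 lower (median -0.23), or 2 lower among genes with 10 counts in every library. Over all genes 32.4% were higher and 31.8% lower.

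ABL2 is the paralog of ABL1 and, like it, a target of nilotinib. Its levels were 62.9, 60.3 and 63.1 CPM in mock DMSO and 57.3, 52.7 and 52.0 CPM in mock nilotinib. Under hemin they were 93.1, 60.5 and 82.2 CPM in solvent and 56.3, 51.4 and 54.6 CPM with nilotinib. Both nilotinib groups lay below both DMSO groups without overlap, while hemin DMSO replicate 2 lay within the range of mock DMSO. Under hemin ABL2 fell by 0.54 with nilotinib (SE 0.14, edgeR adjusted p = 0.00315), in all 19 alternatives. Without hemin the difference was -0.20 (edgeR adjusted p = 0.265), and the interaction was -0.34 (edgeR adjusted p = 0.210), past the threshold at -0.50 only without hemin DMSO replicate 2.

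The rise of ABL2 with hemin in solvent, 0.34 (SE 0.14) with an edgeR adjusted p just under the threshold, was not stable, and its groups overlapped. It was lost when every gene with 1 count or more was tested (0.27) and without mock DMSO replicate 1 (0.28), 2 (0.305) or 3 (0.31), mock nilotinib replicate 1 (0.32), 2 (0.29) or 3 (0.29), hemin DMSO replicate 1 (0.21) or 3 (0.32), or hemin nilotinib replicate 2 (0.29) or 3 (0.29). With both agents ABL2 was the same as with nilotinib alone to within the error, at a log2 difference of 0.00 (SE 0.14).

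KIT encodes the receptor of stem cell factor, which marks early hematopoietic and erythroid progenitors and is lost as they mature. It lies on chromosome 4 (54657918 to 54740715, plus strand; ENSG00000157404). GAB2 encodes the docking adaptor that links BCR-ABL1 to PI3K and SHP2, and lies on chromosome 11 (78215297 to 78418348, minus strand; ENSG00000033327). Of the 10 genes, this pair had the largest falls under nilotinib that passed the threshold, so their promoters are shown. The sequences are from RefSeq (GRCh38.p14) at chr4:54657707-54658006 on the plus strand and chr11:78417771-78418070 on the minus strand. Capitals again mark GGGCGG on either strand, 1 in KIT and 5 in GAB2.
KIT: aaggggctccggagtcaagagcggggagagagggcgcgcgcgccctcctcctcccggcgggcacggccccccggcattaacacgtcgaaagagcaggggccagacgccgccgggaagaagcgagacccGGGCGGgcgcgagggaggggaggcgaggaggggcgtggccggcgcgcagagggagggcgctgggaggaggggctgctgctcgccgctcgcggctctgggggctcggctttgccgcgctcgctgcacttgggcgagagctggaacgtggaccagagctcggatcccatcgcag
GAB2: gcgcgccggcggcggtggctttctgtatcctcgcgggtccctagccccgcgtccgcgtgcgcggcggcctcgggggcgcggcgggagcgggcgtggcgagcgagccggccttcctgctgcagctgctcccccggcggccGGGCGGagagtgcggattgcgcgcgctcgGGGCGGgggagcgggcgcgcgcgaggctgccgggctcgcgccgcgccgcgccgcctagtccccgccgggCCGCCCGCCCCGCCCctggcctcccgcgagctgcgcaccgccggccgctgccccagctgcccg
Neither promoter, nor those of BCR and ABL1, held any of the other motifs searched on both strands. These were AGATAA for the factors of the GATA1 family (present in 10.3% of all promoters), CCGGAA for the ETS family (17.2%), TTCNNNGAA for STAT5 (7.66%) and the E-box CACGTG (7.26%). Their GC content was 74.3% for KIT and 84% for GAB2, with a median of 58.7% over all promoters. A match or its absence describes only these windows of 300 bases.

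KIT was measured at 22.4, 31.1 and 27.9 CPM in mock DMSO and at 2.56, 4.32 and 3.78 CPM in mock nilotinib. With hemin, it was at 7.41, 15.6 and 13.7 CPM in solvent and at 1.52, 2.09 and 1.61 CPM with nilotinib. The groups formed 4 steps without overlap, down from mock DMSO through hemin DMSO and mock nilotinib to hemin nilotinib, where counts were 53, 76 and 69. Nilotinib lowered KIT 7.66-fold without hemin (log2 -2.94, SE 0.27, edgeR adjusted p = 3.590e-07) and 7.03-fold with hemin (log2 -2.81, SE 0.28, edgeR adjusted p = 3.220e-07). Only 2.3% and 5.5% of all genes had a lower fold change in these comparisons. Hemin lowered it 2.22-fold in solvent (log2 -1.15, SE 0.25, edgeR adjusted p = 0.00113). These 3 falls held in all alternatives.

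On top of nilotinib, hemin lowered KIT by 1.03 on the log2 scale (SE 0.28, edgeR adjusted p = 0.0417), 3 libraries below 3, and this call depended on single libraries. It was kept with the replicate block, over 12 libraries (-1.01) or the 6 of the comparison (-1), but lost in those 6 without the block (-1.02) and without mock DMSO replicate 1 (-1.02), 2 (-1.03) or 3 (-1.02), mock nilotinib replicate 2 (-0.88) or 3 (-1), hemin DMSO replicate 3 (-1.03), or hemin nilotinib replicate 2 (-1.20) or 3 (-0.98). The effect of nilotinib on KIT did not differ detectably between hemin and no hemin (interaction 0.12, SE 0.38, edgeR adjusted p = 0.838), a p that does not show the effects to be equal.

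DDR1, a receptor tyrosine kinase activated by collagen, moved the other way. Its levels were 88.9, 87.3 and 91.3 CPM in mock DMSO and 114, 127 and 121 CPM in mock nilotinib. Under hemin they were 93.9, 82.0 and 68.2 CPM in solvent and 98.9, 114 and 115 CPM with nilotinib. Every nilotinib library exceeded every DMSO library, while hemin itself left overlapping groups. The rise with nilotinib was 0.44 without hemin (SE 0.13, edgeR adjusted p = 0.0112) and 0.43 with it (SE 0.13, edgeR adjusted p = 0.00811). The first was lost without mock DMSO replicate 1 (0.39) or 2 (0.42) or mock nilotinib replicate 2 (0.37), and the second without hemin DMSO replicate 3 (0.31).

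PDGFRB, the receptor of PDGF-BB, had 17, 1 and 1 counts in mock DMSO and 0, 0 and 1 in mock nilotinib. There were 20, 18 and 7 counts in hemin DMSO and 6, 6 and 0 in hemin nilotinib. Mock DMSO replicate 1 held 17 of the 19 counts of its group. PDGFRB passed the filter on counts only through DMSO libraries, those with 17, 20 and 18 counts. Its entry thus depended on the groups where it was high, so no test of it is given and its fold changes only describe. In the counts of genes above it stands as not past the threshold in each comparison. With nilotinib under hemin the log2 fold change was -2.02 (SE 0.91). It was -1.98 with all genes of at least 1 count and -2.14 with the replicate block. Without mock DMSO replicate 1 it was -1.99, and without hemin DMSO replicate 3 it was -2.43. With hemin in solvent the log2 fold change was 1.85. It was 1.79 with all genes of at least 1 count, 1.87 in the 6 libraries and 2.13 with the block. Without mock DMSO replicate 1 it was 4.14. The difference with nilotinib in mock cells was -3.34 (SE 1.53), or -3.36 with all genes of at least 1 count. It rests on 1 count in mock nilotinib and moved between -5.35 and -1.01 with single libraries left out. The ligands gave no call over the 12 libraries. Only PDGFA and PDGFB, 2 of the 5 ligand genes, had enough counts for a test, while KITLG, PDGFC and PDGFD did not. Of the pair, 1 was called lower with nilotinib under hemin without hemin nilotinib replicate 3, higher with hemin in solvent in the 6 libraries alone and without hemin nilotinib replicate 1, and lower for hemin with nilotinib without hemin nilotinib replicate 1.

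GAB2 was measured at 209.8, 247 and 259 CPM in mock DMSO and at 38.4, 50.9 and 57.2 CPM in mock nilotinib. Hemin libraries had 168, 151 and 157 CPM in solvent and 30.7, 45.2 and 54.3 CPM with nilotinib. All 6 nilotinib libraries lay far below all 6 DMSO libraries, and the 2 nilotinib groups overlapped. The fall was 4.89-fold without hemin (log2 -2.29, SE 0.19, edgeR adjusted p = 1.130e-07) and 3.65-fold with it (log2 -1.87, SE 0.19, edgeR adjusted p = 3.850e-07), in all alternatives. Hemin in solvent lowered GAB2 by 0.59 (SE 0.18, edgeR adjusted p = 0.0124), a call lost with upper-quartile scaling (-0.47), which moved the median of all genes there from -0.047 to 0.073. The interaction was 0.42 (SE 0.26, edgeR adjusted p = 0.235), past the threshold at 0.63 only without hemin nilotinib replicate 1.

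The family of GAB2 turned over at the same time. GAB1 and GAB3 encode docking adaptors of the same build. GAB1 rose with nilotinib by 2.37 without hemin (SE 0.15, edgeR adjusted p = 4.800e-09) and by 3.72 with it (SE 0.16, edgeR adjusted p = 5.650e-11), and GAB3 by 1.86 (SE 0.12, edgeR adjusted p = 8.390e-09) and 4.24 (SE 0.14, edgeR adjusted p = 1.050e-11). Hemin in solvent lowered them by 1.39 and 2.43, all 3 libraries below all 3 each time. Taken per length, a sum formed after these values were seen, GAB2 made up 67.5 ± 1.94% of the family in mock DMSO and 86.7 ± 0.411% in hemin DMSO, but 9.95 ± 1.42% in mock nilotinib and 9.42 ± 3.27% in hemin nilotinib (SD, n = 3 each). The summed level was 52.1 ± 4.2, 27.0 ± 1.39, 72.1 ± 4.66 and 69.3 ± 5.46 CPM per kb in the same order. With nilotinib, the most abundant member per length was GAB3, at 52.8 CPM per kb without hemin and 51.2 with it. Each DMSO library had GAB2 as its leading GAB gene and each nilotinib library GAB3.

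**Figure D4:**
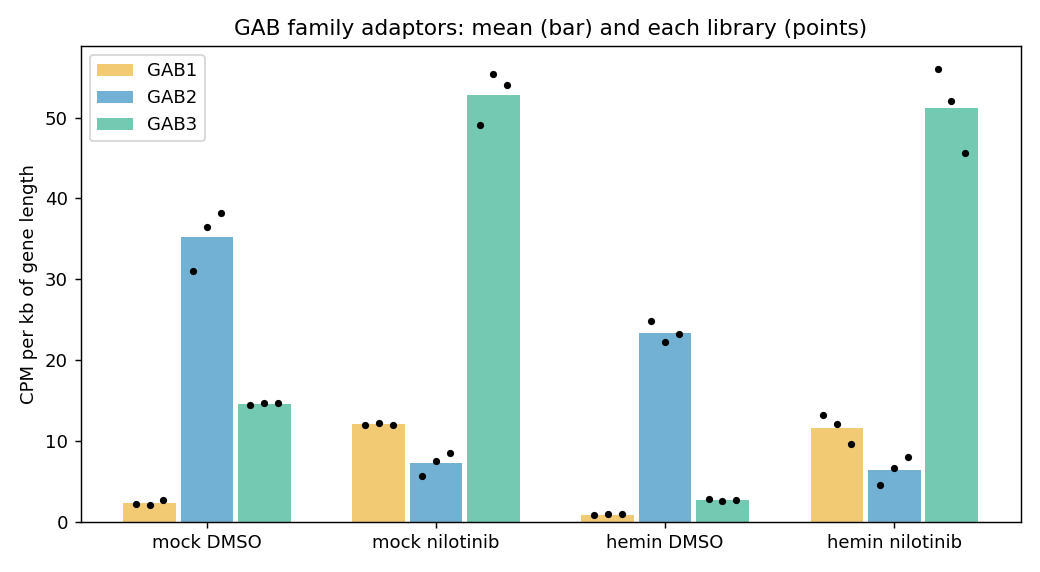
GAB1, GAB2 and GAB3 in CPM per kb of gene length (vertical axis from 0), with bars for the means of 3 libraries in each of the 4 groups and points for each library. GAB2 is the tallest bar in both DMSO groups and GAB3 in both nilotinib groups, where GAB2 makes up 9.95% and 9.42% of the sum.

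CRKL, the adaptor that is a major substrate of BCR-ABL1, behaved differently again. It was measured at 663, 698 and 698 CPM in mock DMSO and at 676, 699 and 748 CPM in mock nilotinib. Under hemin it was at 1042, 1068 and 1189 CPM in solvent and at 810.5, 733 and 758 CPM with nilotinib. Only hemin DMSO stood apart, above every other library, in the same 3 libraries that had the highest stromal marker sums, and the other 3 groups overlapped with their neighbours in order. Hemin raised CRKL by 0.68 in solvent (SE 0.13, edgeR adjusted p = 0.000291) but by 0.12 in the presence of nilotinib (SE 0.13, edgeR adjusted p = 0.636). Nilotinib lowered it by 0.52 under hemin (log2 -0.52, SE 0.13, edgeR adjusted p = 0.00189), and without hemin the difference was 0.04 (SE 0.13, edgeR adjusted p = 0.807), or -0.03 without mock DMSO replicate 1 or mock nilotinib replicate 3.

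CRKL was the only one of the 10 for which the effect of nilotinib differed between hemin and no hemin (interaction -0.56, SE 0.18, edgeR adjusted p = 0.0256). The sign held in all 18 alternatives, from -0.69 to -0.46, but the call was lost with all genes of at least 1 count (-0.49) and without mock DMSO replicate 1 (-0.46), 2 (-0.56) or 3 (-0.53), mock nilotinib replicate 2 (-0.54) or 3 (-0.49), hemin DMSO replicate 3 (-0.52), or hemin nilotinib replicate 2 (-0.50) or 3 (-0.51).

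GRB2, which joins phosphorylated receptors and BCR-ABL1 to the RAS exchange factor SOS, was 196, 208 and 210.45 CPM in mock DMSO and 157, 170.3 and 176 CPM in mock nilotinib. Hemin libraries had 213, 221 and 199.6 CPM in solvent and 168, 181 and 161 CPM with nilotinib. The 6 nilotinib libraries lay below the 6 DMSO libraries, and hemin made no visible step. The difference was small and near the threshold. GRB2 fell by 0.31 under hemin (SE 0.11, edgeR adjusted p = 0.0224), a call lost with all genes of at least 1 count (-0.27), in the 6 libraries alone (-0.29) and without mock DMSO replicate 3 (-0.29) or hemin nilotinib replicate 3 (-0.27). Without hemin it fell by 0.29 (SE 0.11, edgeR adjusted p = 0.0499), lost with RLE (-0.28) or upper-quartile (-0.18) scaling, with all genes of at least 1 count (-0.32), and without mock DMSO replicate 2 (-0.28) or 3 (-0.29), mock nilotinib replicate 1 (-0.24), 2 (-0.33) or 3 (-0.35), or hemin DMSO replicate 1 (-0.28) or 3 (-0.28).

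SHC1, an adaptor that hands receptor signals to GRB2, was 79.4, 76.8 and 77.5 CPM in mock DMSO and 79.6, 86.55 and 97.1 CPM in mock nilotinib. Under hemin it was 163, 107 and 118 CPM in solvent and 85.4, 108 and 124 CPM with nilotinib. Hemin DMSO replicate 1 was the highest library, and both hemin groups overlapped. Hemin raised SHC1 by 0.73 in solvent (SE 0.16, edgeR adjusted p = 0.00135), every library above every mock DMSO library. With nilotinib under hemin the difference was -0.29 (SE 0.16, edgeR adjusted p = 0.134), past the threshold at -0.40 without hemin DMSO replicate 2 and down to -0.08 without hemin DMSO replicate 1. Hemin with nilotinib gave 0.27 (SE 0.16, edgeR adjusted p = 0.358), and the interaction was -0.46 (SE 0.23, edgeR adjusted p = 0.145). SHC1 exons overlap other genes over 7.72% of their length on the same strand and 7.51% on the opposite strand (AL451085.2 and PYGO2), and the sources used here do not say whether counting used strand, so its counts may include reads of those genes.

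The wider pathway was read from lists of genes. Of the other proteins known to bind nilotinib, 4 of 5 genes were tested, and 1 was higher and 2 lower with nilotinib under hemin, small counts beside the 32.4% and 31.8% of all genes. Without hemin, nilotinib gave 1 higher and 2 lower (20.7% and 21.8% of all genes). Hemin in solvent gave 2 higher and 0 lower (25.7% and 27.8%), and the interaction 1 higher and 2 lower (17.1% and 13.0%). Among genes with 10 counts in every library, the 2 lower with nilotinib under hemin became 1. So did the 2 higher with hemin in solvent and the 2 lower by the interaction. DDR2, the second collagen receptor, was at 77.2 ± 2.42 CPM in hemin DMSO, 4.79 ± 0.976 in mock DMSO, 3.16 ± 1.28 in hemin nilotinib and 0.949 ± 0.370 in mock nilotinib (SD, n = 3 each). It rose by 4.01 with hemin in solvent (SE 0.27, edgeR adjusted p = 1.670e-08) and fell by 4.60 with nilotinib under hemin (SE 0.28, edgeR adjusted p = 1.640e-09), with no overlap between the groups compared, and its peak fell in the libraries with the highest stromal marker sums. Without hemin nilotinib lowered it by 2.31, a smaller fall (interaction -2.28, SE 0.39, edgeR adjusted p = 0.000565). DDR1 and DDR2 thus went in opposite directions with nilotinib. CSF1R, the receptor of macrophage colony-stimulating factor, was at 1.70 ± 0.806 CPM in hemin DMSO, 0.204 ± 0.0755 in mock DMSO, 0.373 ± 0.0835 in mock nilotinib and 0.232 ± 0.188 in hemin nilotinib (SD, n = 3 each). It rose by 3.03 with hemin in solvent (SE 0.53, edgeR adjusted p = 0.000181) and fell by 2.82 with nilotinib under hemin (SE 0.54, edgeR adjusted p = 0.000258). Without hemin its nilotinib difference was 0.84, short of the threshold (SE 0.57, edgeR adjusted p = 0.249), and the interaction was -3.66 (SE 0.79, edgeR adjusted p = 0.00273). These values rest on few counts, and CSF1R was removed when every library had to have 10 counts. MAP3K20, the kinase ZAK, rose with nilotinib by 0.82 under hemin and by 0.62 without it. NQO2, a quinone reductase, was lower in mock nilotinib, 91.9 ± 4.23 CPM against 188 ± 17.6 in mock DMSO (log2 -1.04), and this effect differed from that under hemin, -0.06 (interaction 0.98, SE 0.23, edgeR adjusted p = 0.00492).

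Of the 7 adaptor paralogs tested, 5 were higher and 0 lower with nilotinib under hemin (median 2.22), against 32.4% and 31.8% of all genes, and 3 were higher and 0 lower without hemin (median 1.33), against 20.7% and 21.8%. Among them GRAP2, a GRB2-like adaptor of hematopoietic cells, rose by 2.22 under hemin (SE 0.15, edgeR adjusted p = 4.450e-09) and was at 0.23 without it (edgeR adjusted p = 0.202), an interaction of 1.98 (SE 0.20, edgeR adjusted p = 8.320e-06). Hemin in solvent lowered 4 of the 7 and raised 0 (27.8% and 25.7% of all genes), GRAP2 by 2.03. At an unadjusted edgeR p under 0.05, 0 of the 7 were lower in either nilotinib comparison.

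Partners and negative regulators had 5 higher and 5 lower of 15 with nilotinib under hemin, close to the 32.4% and 31.8% of all genes, and 3 higher and 6 lower without hemin, where the shares of all genes were 20.7% and 21.8%. CBL, the ubiquitin ligase that turns over activated kinases, fell by 1.59 (SE 0.14, edgeR adjusted p = 8.890e-08) and by 0.86 (SE 0.14, edgeR adjusted p = 0.000111) in these comparisons, and DOK2, an inhibitory docking protein, by 2.64 and 1.10. INPP5D, the lipid phosphatase SHIP1, rose by 1.79 and 0.65. Of 17 effectors of RAS-ERK, PI3K-AKT and STAT5, 10 were higher and 3 lower under hemin (32.4% and 31.8% of all genes), and 2 higher and 3 lower without it (20.7% and 21.8%). The 2 became 5 with upper-quartile scaling, 6 in the 6 libraries alone, and 1 without mock DMSO replicate 2 or 3 or mock nilotinib replicate 2 or 3, so the contrast with 10 is not firm. AKT2 rose by 1.28 and 0.78, and MAP2K1, the kinase MEK1, fell by 1.19 and 0.59. STAT5A, at 464 ± 26.1 CPM in mock DMSO, 205 ± 16.0 in mock nilotinib, 81.3 ± 24.99 in hemin DMSO and 162 ± 47.7 in hemin nilotinib (SD, n = 3 each), fell by 1.18 with nilotinib alone and rose by 0.99 with nilotinib under hemin. That change of direction passed the test of the difference (interaction 2.17, SE 0.30, edgeR adjusted p = 8.910e-05).

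Among 7 cytoplasmic tyrosine kinases, 2 were higher and 3 lower with nilotinib under hemin (32.4% and 31.8% of all genes), and 1 higher and 3 lower without (20.7% and 21.8%). Of the SRC family, LYN, YES1 and SRC fell with nilotinib under hemin and without it, LYN at -1.96 and -2.01, YES1 at -1.35 and -1.36 and SRC at -1.25 and -0.70 on the log2 scale, each with all 3 nilotinib libraries below all 3 DMSO libraries. FYN, of the same family, was the 1 higher without hemin (0.41, SE 0.12, edgeR adjusted p = 0.0118), a call lost with all genes of at least 1 count (0.38) and without mock DMSO replicate 1 (0.32) or mock nilotinib replicate 2 (0.34). Under hemin FYN was at -0.11 (edgeR adjusted p = 0.436). Its interaction of -0.53 (edgeR adjusted p = 0.0303) was lost with all genes of at least 1 count (-0.455) and without mock DMSO replicate 1 (-0.40), 2 (-0.55) or 3 (-0.49), mock nilotinib replicate 1 (-0.51), 2 (-0.45) or 3 (-0.54), hemin DMSO replicate 1 (-0.44) or hemin nilotinib replicate 2 (-0.55) or 3 (-0.44).

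Genes that are read as the output of ERK and STAT5 were the list with most falls: 11 of 15 lower and 1 higher with nilotinib under hemin (median -1.93), against 31.8% and 32.4% of all genes, and 14 lower and 1 higher without hemin (median -2.29), against 21.8% and 20.7%. The 1 higher without hemin became 0 among genes with 10 counts in every library. ETV4, a transcription factor downstream of ERK, was at -6.94 and -7.15 and SPRY4, a feedback inhibitor, at -6.49 and -6.17 on the log2 scale.

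**Figure D5:**
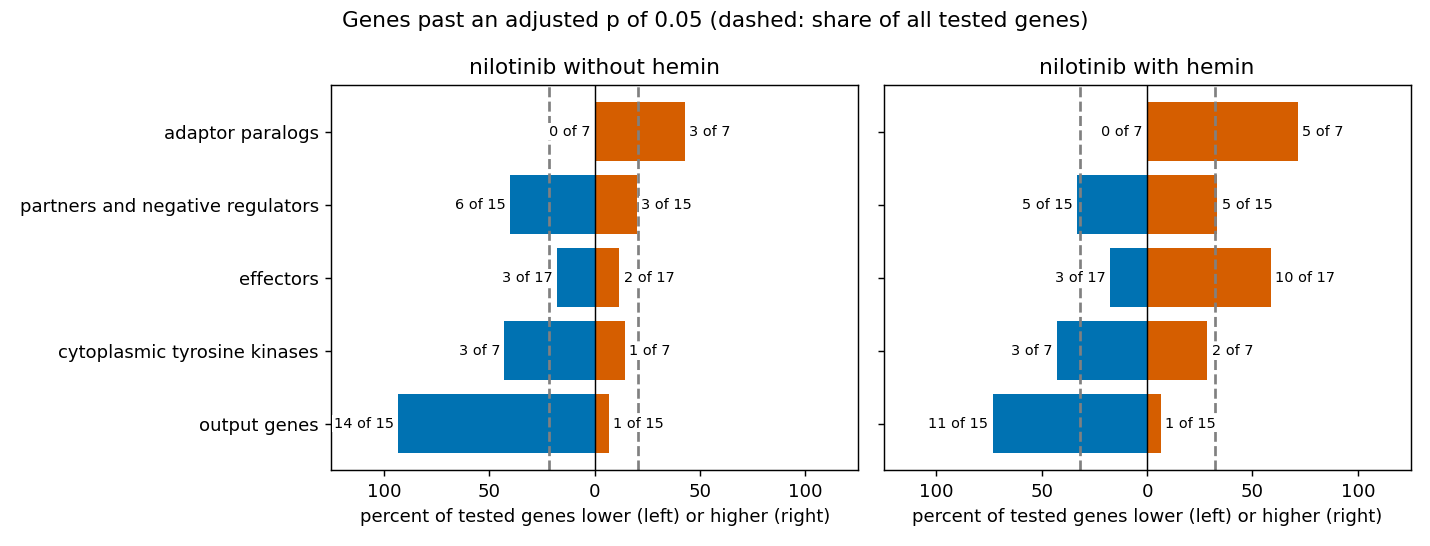
Percent of the tested genes of 5 lists that were lower (left) or higher (right) with nilotinib at an adjusted p of 0.05, without and with hemin; dashed lines give the share of all 20821 genes. The output genes are mostly lower, 14 of 15 and 11 of 15, and the adaptor paralogs have no gene lower.

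Among drug transporters, ABCG2, an efflux pump that carries tyrosine kinase inhibitors, rose with nilotinib by 4.08 without hemin (SE 0.25, edgeR adjusted p = 4.340e-09) and by 3.91 with it (SE 0.25, edgeR adjusted p = 3.240e-09), to 9.39 ± 1.24 and 9.17 ± 0.926 CPM from 0.552 ± 0.138 and 0.602 ± 0.110 CPM (SD, n = 3 each). ABCB1 was at 0.681 ± 0.0939 CPM in mock DMSO, 1.28 ± 0.373 in hemin DMSO, 0.139 ± 0.117 in mock nilotinib and 0.136 ± 0.0692 in hemin nilotinib (SD, n = 3 each). It passed the filter on counts only through the DMSO groups and was removed at 10 counts per library, so no test of it is given.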

How the data were processed

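RNA from K562 cells was sequenced in 12 libraries. The deposited values used here are raw counts of reads per gene, made for the authors without normalization; the submitters' notes name DESeq2, DESeq and GRCh38.p12, and the aligner, the counting program and the use of strand are not given in the sources used here. The deposited FPKM tables hold the same libraries and genes and were not used.

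In R 4.3.3, edgeR 4.0.16 kept genes with filterByExpr (minimum count 10 and minimum total 15), applied TMM and fitted 1 mean per group over 12 libraries (quasi-likelihood test, two-sided, Benjamini-Hochberg adjustment over 20821 genes, called at 0.05). The SE of a log2 fold change is its size divided by the square root of F. The 5 comparisons were nilotinib with and without hemin, hemin with and without nilotinib, and the interaction. The fit was tested on simulated data. Named are the 10 genes, and from 7 lists, all counted, and drug transporters, not counted, genes among the up to 6 largest changes past the threshold in a comparison described, beside their nilotinib values with and without hemin, or levels alone where only the high groups passed the filter; also genes within 500 kb of BCR or ABL1 as counts, and the 5 most like each by Pearson correlation of log2 CPM (prior count 2). Members and lists were chosen with earlier results of these data known. The GAB family sum and the choice of promoters came after the values were seen.

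Replicate numbers come from the labels. Deviations from the group means of libraries with the same number correlated above 0.1 in all 3 pairs for hemin with nilotinib alone (0.263, 0.199 and 0.254). In the other comparisons r was between -0.007 and 0.235. The library of the same number was still the best match, except for replicate 1 of nilotinib with hemin. The main fit had no replicate block, and pairing by number was used as an alternative. The others were DESeq2 1.42.0, RLE or upper-quartile factors, a filter at 1 count in total, a filter at 10 counts per library, the 6 libraries of a comparison, and each library left out. The 6 libraries with pairing, and every alternative for the lists, were added after seeing the data. With nilotinib present, hemin libraries had less GAB2 and DDR1 and more CRKL and SHC1 than the mock library of the same number each time. None of these differences passed the threshold in an alternative. Overlaps and shared words came from GENCODE 29 and promoters from RefSeq, handled in Python 3.11.15; figures were drawn with matplotlib 3.10.9.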

Additional observations from a re-analysis of the deposited data

Results flagged for a closer look

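For CRKL, nilotinib's effect with hemin minus its effect without hemin was -0.56 on the log2 scale (SE 0.18, edgeR adjusted p = 0.0256). It drew attention because the interaction term passed the threshold. CRKL was higher in the 3 hemin DMSO libraries than in the other 9. The call was lost when any 1 of 8 libraries was left out, and its cause was not tested.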

How the results depend on the processing

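Of 940 fold changes of the 10 genes recomputed under alternatives, 826 kept their direction and side of the threshold. Of the rest, 53 fell short of the threshold, 21 came to pass it and 40 changed sign. The calls concerned are named in the report, except those of PDGFRB, for which no test is given and the fold changes only describe. Of 3237 values of list genes, 3064 kept both and 173 fell short. For hemin with nilotinib, 0 of the 10 genes passed in the 6 libraries alone and 0 to 3 with single libraries left out, but 2, as over 12 libraries, passed in the 6 with pairing, which was added after seeing the data. The genes called were 1600 in the 6 with pairing, 1587 over 12 with pairing, 1974 with DESeq2, 1987 with the filter at 1 count, 183 in the 6 libraries alone and 213 to 2793 with single libraries left out, against 1208. For nilotinib without hemin, 2 to 5 of the 10 passed with single libraries left out, against 4. For the interaction, 0 passed with the filter at 1 count and 0 to 2 with single libraries left out, against 1.

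Changes of sign were in values short of the threshold. With the filter at 1 count, GRB2 was at -0.0289 for hemin without nilotinib, and the interaction was 0.0587 for DDR1 and 0.0428 for GRB2. ABL2 for hemin with nilotinib was at -0.0103 with DESeq2, -0.0102 with RLE factors, -0.000122 with upper-quartile factors and -0.00124 with the filter at 1 count. With single libraries left out, the ranges were -0.0553 to 0.0735 for ABL1 and -0.0263 to 0.0745 for CRKL (nilotinib without hemin), -0.0545 to 0.0978 for GRB2 (hemin without nilotinib), -0.0497 to 0.0448 for ABL2, -0.371 to 0.0261 for GAB2 and -0.054 to 0.0456 for GRB2 (hemin with nilotinib), and -0.145 to 0.328 for KIT, -0.138 to 0.0941 for DDR1, -0.975 to 3.34 for PDGFRB and -0.0821 to 0.0804 for GRB2 (interaction). The cause was not tested. PDGFRB gave no value where the filters removed it, and genes without a DESeq2 adjusted p were left out there.

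The 3 libraries per group come from 1 cell line, and under the stated methods time and hemin cannot be told apart. Gene counts cannot tell the fusion from the normal alleles of BCR and ABL1, and say nothing of protein or kinase activity. With 77 counts in all, PDGFRB allows no firm statement.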
